A study of Mus musculus with 10 samples.

Results

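Macrophages are the most abundant resident immune cells of the kidney interstitium, where they clear debris and sense injury, and monocytes from the blood can join them. A set of 10 genes that mark resident and infiltrating macrophages was followed in kidneys of 3-month-old mice carrying an activating variant of RagC: Ptprc, Adgre1, Csf1r, C1qa, C1qb, C1qc, Mrc1, Ms4a7, Lyz2 and Sirpa. All 10 were present among the 13837 genes listed, and all passed the filter on low values that left 13197 genes for testing. RagC is a small GTPase that, as part of the Rag heterodimer, reports amino acid supply to the growth-promoting kinase complex mTORC1 at the lysosome. The RragcS74N/+ mice carry the serine-to-asparagine change at residue 74, made with CRISPR and present in every cell in 1 of the 2 gene copies, while Rragc+/+ mice are the wild-type comparison. Whole kidneys of 5 Rragc+/+ and 5 RragcS74N/+ mice were sequenced at the 3′ ends of messenger RNA, and the labels give no sex. The Y-linked gene Ddx3y was at 317 normalized counts or more in each kidney, and the X-inactivation gene Xist was not listed. The comparison asked which macrophage genes differed between the genotypes in young kidneys, and whether Sirpa moved with the others. The members were chosen with earlier results of these data known, so the p-values do not test that choice.

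The 10 members cover several roles. Ptprc encodes CD45, the phosphatase on the surface of nucleated blood cells, and Adgre1 encodes F4/80, the adhesion receptor that marks mouse macrophages. Csf1r is the receptor for the survival factors Csf1 and Il34. C1qa, C1qb and C1qc encode the chains of C1q, the recognition molecule of the classical complement pathway, which is made mainly by macrophages and related cells. Mrc1 encodes the mannose receptor CD206, Lyz2 the lysozyme of myeloid cells and Ms4a7 a tetraspan membrane protein. Sirpa encodes SIRPα, the inhibitory receptor that binds CD47 on other cells and recruits the phosphatases encoded by Ptpn6 and Ptpn11 to restrain phagocytosis. Unlike most of the other members, Sirpa is also known from neurons and other cells that are not macrophages.

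Of the 10 macrophage genes, 2 fell in RragcS74N/+ kidneys and none rose (limma with Benjamini-Hochberg adjustment over 13197 genes, adjusted p under 0.05). Sirpa fell by 1.40 on the log2 scale and Ms4a7 fell by 1.78, while the other 8 genes did not pass. Among all genes tested, 3.69% passed, with 2.02% lower and 1.67% higher in RragcS74N/+. The median log2 fold change was 0.06 over the 10 members, 0.07 over the 9 without Sirpa, and 0.00046 over all genes tested. In whole tissue, fewer cells of a type and less RNA per cell cannot be told apart.

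Reads on the listed genes ranged from 6501552 to 7856363 per Rragc+/+ kidney and from 6872310 to 7996087 per RragcS74N/+ kidney. The mitochondrial share of reads was 24.5 to 30.1% and 23.9 to 27.1%, respectively. The library codes fall into 2 runs of numbers, 38 to 40 and 53 to 66. The first run holds 2 Rragc+/+ kidneys and 1 RragcS74N/+ kidney, too few for a comparison within it, so values within codes 53 to 66 are given beside the called members. Nothing ties a kidney of one genotype to a kidney of the other.

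Sirpa was lower in each RragcS74N/+ kidney than in each Rragc+/+ kidney. In Rragc+/+ replicates 1 to 5 the normalized counts of Sirpa were 146, 152, 127, 185 and 211. In RragcS74N/+ replicates 1 to 5 they were 60.7, 80.8, 45.2, 53.4 and 68.1. The lowest Rragc+/+ kidney thus stood above the highest RragcS74N/+ kidney, with no overlap. No overlap was found for 5% of all genes tested and, among the members, for Sirpa alone. The mean was 164 ± 33.7 in Rragc+/+ and 61.6 ± 13.7 in RragcS74N/+ (SD, n = 5 each), a 2.67-fold difference between means. The log2 fold change was -1.40 with a standard error of 0.17 and a 95% interval from -1.76 to -1.05 (limma, adjusted p = 4.81e-05). Within library codes 53 to 66 it was -1.48 (limma, adjusted p = 0.00279). Behind these values were 814 reads in the Rragc+/+ kidneys together and 318 in the RragcS74N/+ kidneys. Sirpa has close relatives in the Sirpb1 genes, and reads shared with them were not separated here. In the GENCODE annotation of GRCm38, an earlier build than the one used for counting, Sirpa lies on chr2:129592835-129632228 on the plus strand.

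**Figure D1:**
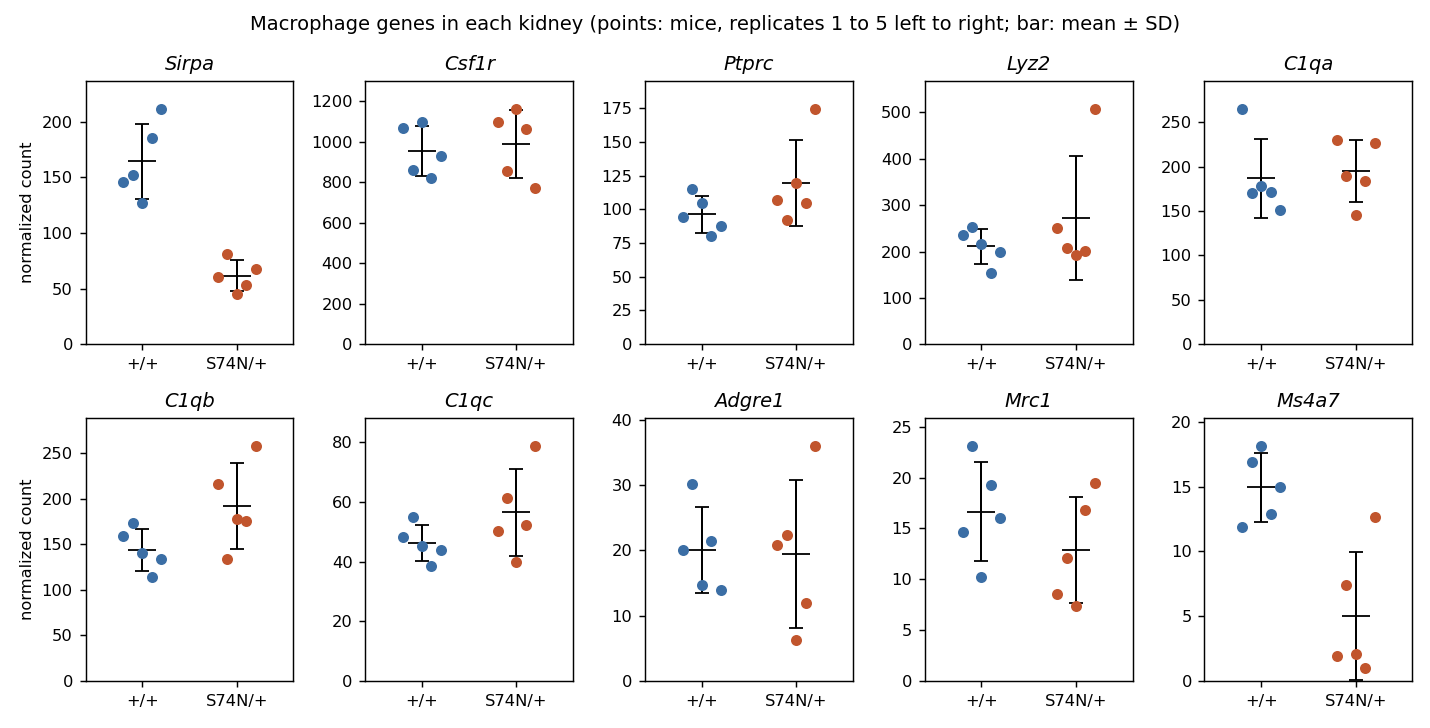
Normalized counts (vertical axes, from 0) of the 10 macrophage genes in 5 Rragc+/+ (blue) and 5 RragcS74N/+ kidneys (orange). Points are mice and bars are mean ± SD. Sirpa is the only panel without overlap, from 127 to 211 against 45.2 to 80.8, and RragcS74N/+ replicate 5 is the highest point for Ptprc, Lyz2, C1qb, C1qc and Adgre1.

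Ms4a7 had few reads in every kidney, and its fall rests on them. Recovered reads of Ms4a7 were 13, 19, 16, 12 and 14 in Rragc+/+ replicates 1 to 5 and 2, 8, 2, 1 and 13 in RragcS74N/+ replicates 1 to 5. As normalized counts these were 11.9, 16.9, 18.1, 12.9 and 14.9 against 1.90, 7.43, 2.10, 0.988 and 12.6. In 4 of 5 RragcS74N/+ kidneys Ms4a7 was below every Rragc+/+ kidney, and RragcS74N/+ replicate 5 fell within the Rragc+/+ range. The log2 fold change was -1.78 with a standard error of 0.47 and a 95% interval from -2.77 to -0.79 (limma, adjusted p = 0.0429). The call was lost within library codes 53 to 66, at -1.65 (limma, adjusted p = 0.196), and with edgeR on the recovered reads (adjusted p = 0.0707). The call held with the run of library codes as a covariate, at -1.86 (limma, adjusted p = 0.0309), and with DESeq2 on the recovered reads, at -1.56 (adjusted p = 0.0355). The call was also lost when any 1 Rragc+/+ kidney, or RragcS74N/+ replicate 1, 3 or 4, was left out, with log2 fold changes from -1.85 to -1.48 in those fits. Without RragcS74N/+ replicate 5 the log2 fold change was -2.17 (limma, adjusted p = 0.00602). Ms4a7 belongs to a family of similar neighbouring genes, and reads shared between its members were not separated here.

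Promoter sequence in RefSeq (GRCm38.p6) was matched by symbol for 6 of the 10 members, with 8 entries in all. No promoter of Sirpa, Csf1r, C1qa or Adgre1 was searched, so nothing below applies to Sirpa. The 250 bases before the start were searched on both strands for the PU.1 core GAGGAA, the letters bound by the master factor of myeloid cells, for the AP-1 site TGANTCA, for the E-box CACGTG and for the palindromic CLEAR element, which contains that E-box and is bound by the lysosomal regulators Tfeb and Tfe3. GAGGAA was found before the start of 4 members, Ptprc, C1qb, C1qc and Mrc1, and in 23.3% of all 32851 promoters in the table. For Ptprc the match was in only 1 of 2 entries. Both Ptprc entries lie within the annotated gene, chr1:138062861-138175708 in the GENCODE annotation of GRCm38. The C1qc and Mrc1 entries lie partly within their annotated genes. The shares over all promoters count entries rather than genes, so members and shares are not counted alike. TGANTCA was found for 1 member, Ms4a7, and in 6.75% of all promoters. Neither CACGTG nor the CLEAR element was found for any of the 6 members, and they were present in 6.02% and 0.24% of all promoters. A match is a description of letters only. The entries of C1qb and C1qc, neighbours on chromosome 4 of which values are given next, and the Ms4a7 entry with a match are shown 5′ to 3′ on the minus strand of GRCm38.p6, with matched letters in capitals (TTCCTC is GAGGAA on the other strand).
C1qb, chr4:136886201-136886450: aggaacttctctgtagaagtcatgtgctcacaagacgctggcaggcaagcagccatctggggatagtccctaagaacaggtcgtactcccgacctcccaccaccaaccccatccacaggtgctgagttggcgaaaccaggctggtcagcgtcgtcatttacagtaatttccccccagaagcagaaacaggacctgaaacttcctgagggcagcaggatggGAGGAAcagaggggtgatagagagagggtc
C1qc, chr4:136892915-136893164: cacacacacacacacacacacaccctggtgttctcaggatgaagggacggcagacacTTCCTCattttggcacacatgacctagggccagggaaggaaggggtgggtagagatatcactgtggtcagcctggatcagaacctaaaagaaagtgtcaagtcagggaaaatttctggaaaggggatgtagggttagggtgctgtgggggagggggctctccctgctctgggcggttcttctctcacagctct
Ms4a7, chr19:11334696-11334945: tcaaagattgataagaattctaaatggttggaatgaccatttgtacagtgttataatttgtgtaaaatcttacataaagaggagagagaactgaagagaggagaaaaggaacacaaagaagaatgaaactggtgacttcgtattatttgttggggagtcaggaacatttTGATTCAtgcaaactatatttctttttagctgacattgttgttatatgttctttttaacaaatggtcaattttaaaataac
The capitals lie 30 bases before the start for C1qb, 193 for C1qc and 81 for Ms4a7, counted to the first base of the match. The other Ms4a7 entry, chr19:11336147-11336396, held none of the motifs. In the GENCODE annotation of GRCm38, Ms4a7 spans chr19:11321039-11336146 on the minus strand. The entry shown thus lies within the annotated gene, and the other entry directly before its start.

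None of the 3 C1q chains passed the test. C1qb was 159, 173, 141, 114 and 133 normalized counts in Rragc+/+ replicates 1 to 5 and 216, 134, 178, 175 and 258 in RragcS74N/+ replicates 1 to 5. Although 4 of 5 RragcS74N/+ kidneys were above every Rragc+/+ kidney, RragcS74N/+ replicate 2 lay within their range. The log2 fold change of C1qb was 0.39 with a standard error of 0.16 and a 95% interval from 0.06 to 0.73 before adjustment over all genes, after which it did not pass (limma, adjusted p = 0.220). C1qc was 48.4, 55.1, 45.4, 38.6 and 43.8 in Rragc+/+ and 50.3, 61.3, 39.9, 52.4 and 78.8 in RragcS74N/+ kidneys, with 2 of the latter above the Rragc+/+ range. Its log2 fold change was 0.26 ± 0.18 (SE; limma, adjusted p = 0.562). C1qa was 265, 170, 178, 172 and 152 in Rragc+/+ and 230, 190, 146, 184 and 227 in RragcS74N/+ kidneys, and the highest value belonged to a Rragc+/+ kidney. C1qa had a log2 fold change of 0.07 ± 0.15 (SE; limma, adjusted p = 0.885). It was 0.20 without Rragc+/+ replicate 1, the kidney with the highest value, and 0.0006 without Rragc+/+ replicate 5. The 3 genes lie next to each other in the annotation of GRCm38, all on the minus strand: C1qb at chr4:136880129-136886187, C1qc at chr4:136889804-136893065 and C1qa at chr4:136895917-136898803.

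Of the partners of C1q in the classical pathway, 4 were listed and tested, and none passed. In log2 fold change, C1ra, a protease of the C1 complex, was at -0.24 (limma, adjusted p = 0.477), and C1s1, its substrate protease, 0.22 (limma, adjusted p = 0.621). Serping1, the C1 inhibitor, was at 0.24 on the same scale (limma, adjusted p = 0.390).

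Csf1r did not pass the test. It was 1068, 859, 1097, 821 and 928 normalized counts in Rragc+/+ and 1097, 855, 1161, 1065 and 774 in RragcS74N/+ kidneys, and the ranges overlapped. Csf1r had a log2 fold change of 0.05 ± 0.12 (SE) with a 95% interval from -0.20 to 0.29 (limma, adjusted p = 0.904). Its ligands did not pass either, with log2 differences of -0.01 for Il34 (limma, adjusted p = 0.980) and -0.05 for Csf1 (limma, adjusted p = 0.964). Counting the related Csf2ra, Csf2rb and Csf2rb2, 0 of 6 genes of this axis passed.

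The pan-leukocyte gene Ptprc was 94.0, 115, 104, 80.4 and 87.6 normalized counts in Rragc+/+ and 107, 92.0, 120, 105 and 174 in RragcS74N/+ kidneys. The log2 fold change of Ptprc was 0.29 ± 0.16 (SE; limma, adjusted p = 0.433), and 2 RragcS74N/+ kidneys were above the Rragc+/+ range. Lyz2 was 235, 253, 217, 153 and 199 in Rragc+/+ and 250, 208, 192, 202 and 507 in RragcS74N/+ kidneys, so that RragcS74N/+ replicate 5 alone stood above the Rragc+/+ range. Its log2 fold change was 0.28 ± 0.21 (SE; limma, adjusted p = 0.608), and 0.03 without RragcS74N/+ replicate 5 (limma, adjusted p = 0.960). Lyz2 has a near copy, Lyz1, next to it in the genome, and reads shared between them were not separated here.

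Adgre1 and Mrc1 had low counts and wide intervals. Adgre1 was 20.1, 30.2, 14.7, 21.4 and 13.9 normalized counts in Rragc+/+ and 20.9, 22.3, 6.31, 11.9 and 36.0 in RragcS74N/+ kidneys. Its log2 fold change was -0.19 with a 95% interval from -0.96 to 0.58 (limma, adjusted p = 0.862). Mrc1 was 14.6, 23.1, 10.2, 19.3 and 16 in Rragc+/+ and 8.54, 12.1, 7.36, 16.8 and 19.5 in RragcS74N/+ kidneys. The log2 fold change of Mrc1 was -0.39 with a 95% interval from -1.05 to 0.27 (limma, adjusted p = 0.631).

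**Figure D2:**
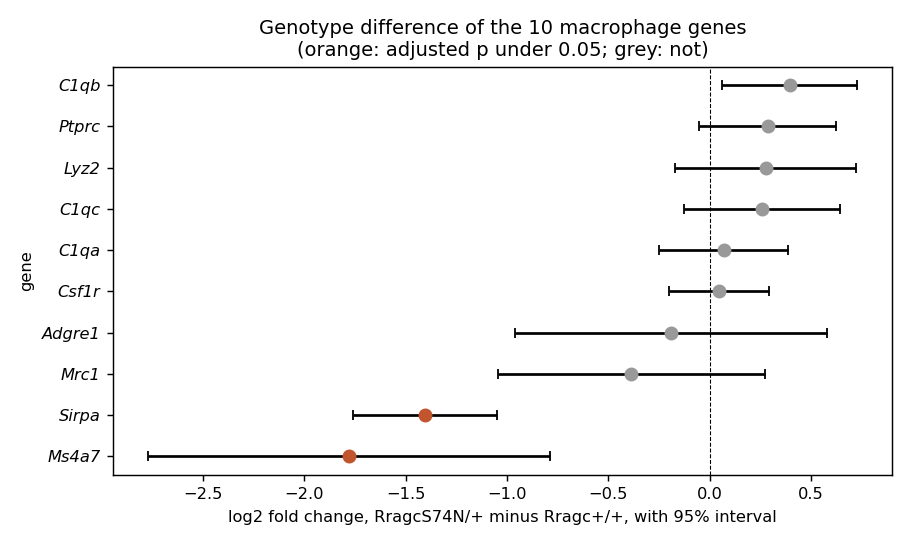
Log2 fold change of RragcS74N/+ minus Rragc+/+ kidneys (horizontal axis) for each of the 10 macrophage genes (vertical axis), with 95% intervals from limma. Sirpa at -1.40 and Ms4a7 at -1.78 passed the adjusted threshold (orange), and the other 8 lie between -0.39 and 0.39 (grey).

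Sirpa was next set against each of the other 9 members within a mouse, as a log2 ratio of normalized counts plus 1. The ratio was lower in every RragcS74N/+ kidney than in every Rragc+/+ kidney for 6 of 9 members: Csf1r, Ptprc, Lyz2, C1qa, C1qb and C1qc. Against Csf1r, the mean log2 ratio was -2.54 ± 0.43 in Rragc+/+ and -3.99 ± 0.54 in RragcS74N/+ kidneys (SD, n = 5 each), a difference of -1.45 (exact permutation test, two-sided, p = 0.00794, the smallest that 5 against 5 mice can give). Against C1qb, the difference of the mean log2 ratio was -1.80 (exact permutation test, two-sided, p = 0.00794). Against Adgre1 and Mrc1 the ratios overlapped, with differences of -1.21 and -1.02 (exact permutation tests, two-sided, p = 0.0159 for each). Against Ms4a7 the difference was 0.37 in the other direction, and the ranges overlapped (exact permutation test, two-sided, p = 0.452). The ratios all hold the same Sirpa values, and the ratio of Sirpa to 83.6% of the 13196 other genes tested was likewise lower without overlap, a share above that of the 6 among 9 members. Within library codes 53 to 66 the ratio to 8 of 9 members did not overlap.

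**Figure D3:**
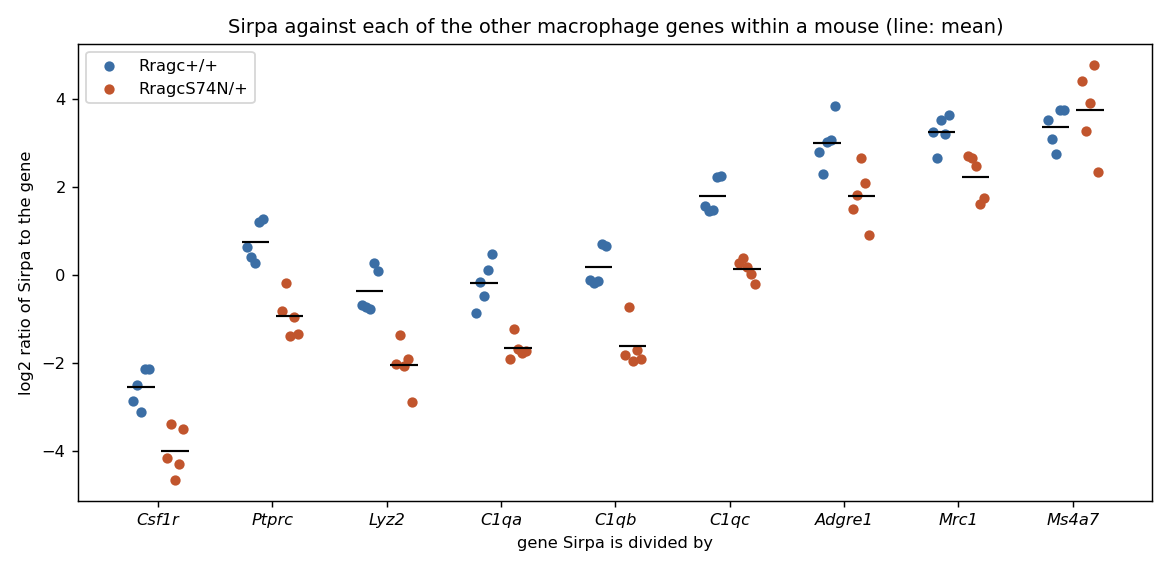
Log2 ratio of Sirpa to each of the other 9 macrophage genes (vertical axis) in each kidney, Rragc+/+ in blue and RragcS74N/+ in orange, with the mean as a line. The ratio to Csf1r, Ptprc, Lyz2, C1qa, C1qb and C1qc did not overlap between genotypes, whereas that to Adgre1, Mrc1 and Ms4a7 did.

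None of the genes that act with SIRPα passed the test. Of 13 such genes, 9 were listed and tested, 4 with a log2 fold change above 0, and their median was -0.03. Cd47, the ligand, had a log2 difference of 0.07 (limma, adjusted p = 0.820), and Ptpn11, encoding a phosphatase that the receptor recruits, one of -0.05 (limma, adjusted p = 0.863). For Grb2, a signalling adaptor, the log2 difference was -0.06 (limma, adjusted p = 0.815).

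A longer list of other macrophage genes held 1 gene that passed. Of its 47 genes, 32 were listed and 29 tested, of which 1 fell, none rose, and 16 had a log2 fold change above 0, with a median of 0.09. The gene that fell was Maf, a transcription factor of macrophages that other kidney cells also use, at -0.64 on the log2 scale (limma, adjusted p = 0.00332), with 3326 to 4500 normalized counts in Rragc+/+ and 1906 to 3092 in RragcS74N/+ kidneys. The summed count of the listed genes without Maf was 2074 to 2343 in Rragc+/+ and 2017 to 2641 in RragcS74N/+ kidneys. Mertk, the receptor for dying cells, stood at 0.20 in log2 fold change (limma, adjusted p = 0.269), and Lgmn, a lysosomal protease, -0.60 (limma, adjusted p = 0.0640). Mertk and Lgmn were the largest parts of the sum without Maf. Their means were 451 and 471 in Rragc+/+ and 520 and 324 in RragcS74N/+ kidneys, in that order. Which cells the sum reflects was not tested.

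Among genes of blood monocytes and infiltrating cells, 13 of 22 were listed, all 13 were tested, and none passed, with 10 above 0 and a median log2 fold change of 0.40. Ly6c1 stood at -0.09 in log2 fold change (limma, adjusted p = 0.730) and Lgals3, or galectin-3, 0.20 (limma, adjusted p = 0.411). Ly6c2, a marker of inflammatory monocytes singled out after its values were seen, was 3.56 to 10.7 normalized counts in Rragc+/+ and 7.36 to 63.2 in RragcS74N/+ kidneys, with a log2 fold change of 1.58 that did not pass (limma, adjusted p = 0.0517). Of the lists for other leukocytes, none of 3 neutrophil, 3 T and NK cell and 3 dendritic cell genes passed, and 1 of 3 B and plasma cell genes rose, Igkc, at 1.30 on the log2 scale (limma, adjusted p = 0.0390). The summed neutrophil list was 310 in RragcS74N/+ replicate 1, against 62.3 to 128 in the other 9 kidneys. The summed B and plasma cell list was 451 to 1346 in Rragc+/+ and 1108 to 5424 in RragcS74N/+ kidneys. Igkc made up most of that sum, with means of 782 in Rragc+/+ and 2107 in RragcS74N/+ kidneys. Most defining markers of these leukocytes, such as Cd3e, Ly6g and Flt3, were not among the listed genes.

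RragcS74N/+ replicate 5 was the highest of the 10 kidneys for 5 of the 9 members other than Sirpa. It was the lowest for Csf1r, at 774 normalized counts. In the same kidney the summed count of B and plasma cell genes was 5424, against 451 to 2202 in the other kidneys, and that of mesenchymal genes was 3473, against 1542 to 1954. Its monocyte list was at 2111, against 1382 to 1603. Over the 10 kidneys, most of that list came from Ly6c1, Lgals3, Ace and S100a6, with means of 445, 371, 262 and 241. Ccr2 and Plac8 had means of 31.0 and 35.7. Which cells the sum reflects was not tested. The collecting duct list of this kidney was also the highest, at 3069 against 2026 to 2402. Its thick limb list was the lowest, at 13254 against 20211 to 37556. Sirpa in that kidney was 68.1, within the RragcS74N/+ range. Without it, the log2 fold change of C1qb was 0.28, that of Ptprc 0.14 and that of C1qc 0.13, and none passed.

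Markers of kidney cells moved with genotype as well. Of 5 distal tubule genes, 4 fell (Slc12a3, Pvalb, Trpm6 and Klhl3), and the summed list was 4605 to 5245 in Rragc+/+ and 2668 to 3513 in RragcS74N/+ kidneys. Of 5 thick limb genes, Umod and Kcnj1 fell and Cldn16 rose, and the sum was 28710 to 37556 against 13254 to 21719. Umod made up most of that sum, with means of 22917 in Rragc+/+ and 11569 in RragcS74N/+ kidneys. In the proximal tubule list of 8, Slc5a2 and Slc5a12 fell and Slc22a6 rose. In the collecting duct list of 9, Atp6v0d2 and Slc4a1 fell, and of 9 podocyte genes Synpo and Ptpro rose, whereas none of 9 endothelial and 9 mesenchymal genes passed. Hba-a1 fell among 5 erythroid genes. The summed proximal tubule list was 276133 to 361267 in Rragc+/+ and 329649 to 414360 in RragcS74N/+ kidneys. Kap made up most of that sum, with means of 261999 in Rragc+/+ and 307033 in RragcS74N/+ kidneys. Kap did not pass the test, and its values overlapped between the genotypes. Podocyte genes summed to 1345 to 1578 against 1522 to 1723, and endothelial genes to 3153 to 3411 against 2495 to 3315. The part of these cell types in the differences of Sirpa and Ms4a7 was not tested.

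Variation among kidneys of one genotype was followed by correlating the members after the mean of each genotype was subtracted. Of 45 pairs over 10 mice, 5 passed by Pearson's r after adjustment over the 45 pairs and none by Spearman's rho (permutation tests, 100000 resamples, two-sided). The 5 pairs were Ptprc with Lyz2, Ptprc with C1qb, C1qb with Lyz2, C1qc with Lyz2 and Adgre1 with C1qc. For Ptprc and Lyz2, r was 0.87 (permutation test, adjusted p = 0.0272) and rho 0.75 (permutation test, adjusted p = 0.113). When the 2 mice farthest from the median of Ptprc were left out, r was 0.48, and within library codes 53 to 66 it was 0.89. For C1qb and Lyz2, r was 0.83 (permutation test, adjusted p = 0.0272), rho 0.84 (permutation test, adjusted p = 0.0547) and r 0.85 without the 2 farthest mice. For Ptprc and C1qb, r was 0.84, rho 0.89 and r 0.67 without those mice. For C1qc and Lyz2 the values were 0.84, 0.82 and 0.62, and for Adgre1 and C1qc they were 0.84, 0.71 and 0.47, in the same order. All 28 pairs among the 8 members other than Sirpa and Csf1r had r above 0, with a median of 0.51. Without RragcS74N/+ replicate 5, a choice made after seeing the data, 18 of the 28 pairs were above 0 and the median was 0.25. Within library codes 53 to 66, also chosen after seeing the data, all 28 were above 0 with a median of 0.65.

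Sirpa and Csf1r were taken apart, Csf1r after its values were seen. The r of Sirpa with the other 9 members ran from -0.74 with Csf1r to 0.51 with Adgre1, with a median of 0.08. Csf1r had r below 0 with each of the other 9 members, from -0.77 with Mrc1 to -0.01 with C1qb, and none passed after adjustment. For Csf1r and Sirpa, r was -0.74 (permutation test, adjusted p = 0.0850), rho -0.78 (permutation test, adjusted p = 0.0945), r -0.77 without the 2 farthest mice and r -0.83 within library codes 53 to 66. Without RragcS74N/+ replicate 5, Csf1r had r below 0 with 5 of the 9 members.

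**Figure D4:**
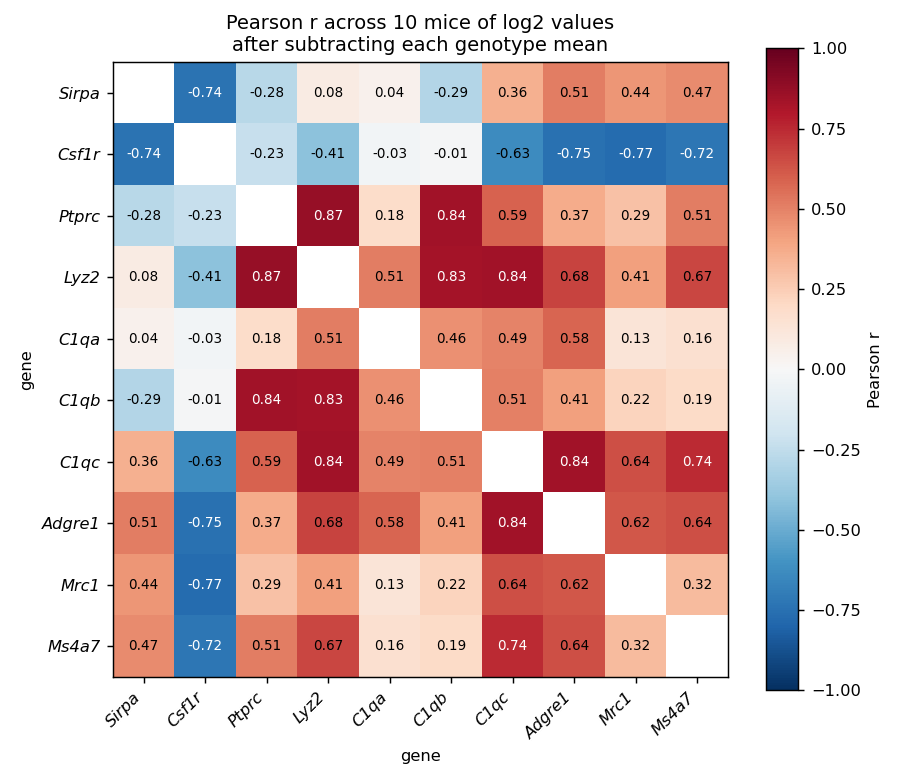
Pearson r between each pair of the 10 macrophage genes (both axes list the genes) across 10 mice, from log2 values after the genotype mean was subtracted, on a scale from -1 (blue) to 1 (red). Csf1r is negative with the other 9 genes, down to -0.77, while the 28 pairs without Csf1r and Sirpa are positive, up to 0.87.

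The genes most like 3 of the members across the 10 mice were taken from 11590 other tested genes whose mean reached 20 normalized counts, by Pearson's r of the same genotype-centred values. For Sirpa they were Abl1 (r = 0.97), Bfar, Rab20, Gas6 and Efhd2 (r = 0.91). For Csf1r they were Pgap4 (r = 0.95), Farsa, Klhdc10, Mfge8 and Ifitm1 (r = 0.93). For C1qa they were Pygm (r = 0.94), Prkag3, Pip4p1, Smcr8 and Yipf6 (r = 0.89). These are the highest of 11590 values over 10 mice, given as a description with no test, and no relation is read from them. No other member was among the 5 most like genes of any of the 3.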

How the data were processed

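RNA of whole kidneys from 5 Rragc+/+ and 5 RragcS74N/+ mice was made into QuantSeq 3′ FWD libraries, which prime on the poly(A) tail and keep strand, and was sequenced on an Illumina NextSeq. The study states alignment with TopHat2 2.0.10 (Bowtie 1.0.0, SAMtools 0.1.19) to GRCm39, counting with HTSeq 0.6.1 on the sense strand and quality checks with FastQC 0.11.7. The deposited values are a signal per gene, counts divided by a size factor by the authors. Every value was a whole number of reads times one step per kidney (100% within 0.01 reads), so reads were recovered. No kidney column was left unmatched. The lowest mean of a listed gene was 5.64 normalized counts, so lower genes were not analysed here.

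Each kidney was grouped by its genotype label. Values were tested as log2(normalized count + 1), on which scale fold changes of low genes are understated, with limma 3.58.1 (R 4.3.3, variance trend, both genotypes, no covariate) over the 13197 genes with at least 10 normalized counts in at least 5 kidneys, at an adjusted p of 0.05. Replicate numbers were given in accession order and pair no kidneys. The p-values set differences against the spread between these kidneys, and limma moderates that spread over all genes tested. Ratios were tested by exact permutation over mice and correlations by permutation (scipy 1.17.1). The shuffles for the correlations ran across all 10 mice and were not kept within a genotype. Alternatives covered the pseudocount, the filter, rescaling, variance settings, edgeR 4.0.16 and DESeq2 1.42.0 on recovered reads, the run of library codes, and each kidney left out. The tests across genes were tested on simulated data. The members and lists were chosen with earlier results of these data known. All members were named, and of most other lists every gene past the threshold and otherwise up to 3 with the highest mean. Genes of the Csf1r axis, Ly6c2 and genes named for their part in a list sum were named outside that rule. Gene positions are from GENCODE vM21 (GRCm38) and are not those of the build used for counting.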

Additional observations from a re-analysis of the deposited data

Results flagged for a closer look

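Over the 20 sets of 5 values (10 members in each genotype), the highest value stood far from the others in 2, where the gap to the nearest kidney took up more than 0.71 of the whole range (Dixon's test). Chance marks about 1 set in 20. C1qa in Rragc+/+ replicate 1 was 265 normalized counts, against 152 to 178 in the other 4 Rragc+/+ kidneys. Lyz2 in RragcS74N/+ replicate 5 was 507 normalized counts, against 192 to 250 in the other 4 RragcS74N/+ kidneys.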

How the results depend on the processing

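Sirpa passed in all 22 alternatives, with log2 fold changes from -1.51 to -1.30 (limma, edgeR or DESeq2, adjusted p from 2.87e-12 to 0.00279). Ms4a7 passed in 9 of 21, with log2 fold changes from -2.17 to -1.11 and adjusted p from 0.00602 to 0.196. It was not tested at a mean of at least 50 normalized counts, and it was lost under quantile normalization (limma, adjusted p = 0.0540) and without the variance trend (limma, adjusted p = 0.0815), so that 1 member passed in those settings, with edgeR and within library codes 53 to 66. With each kidney left out in turn, 1 to 2 members passed. The number of genes passing, 487, became 291 without the trend, 832 with the run of library codes as a covariate and 648 with DESeq2, and ranged from 295 (without Rragc+/+ replicate 5; 310 without replicate 4) to 466 with 1 kidney left out. The other 8 members passed in no alternative. The sign of the log2 fold change turned for Csf1r without Rragc+/+ replicate 4 (-0.0068) or RragcS74N/+ replicate 3 (-0.0167) and for Adgre1 without RragcS74N/+ replicate 3 (0.13). With 1 kidney left out, the range was -0.017 to 0.13 for Csf1r and -0.458 to 0.127 for Adgre1. The ratio of Sirpa to 6 to 8 members did not overlap in the alternatives. The 5 correlated pairs became 0 by rank correlation, and the median r of the 28 pairs became 0.23 without the 2 farthest mice of each pair and 0.25 without RragcS74N/+ replicate 5. The cause of these changes was not tested, apart from the smaller number of samples or genes in some fits. No paired analysis was possible because the replicate numbers do not pair kidneys. Depth limits Ms4a7, Mrc1 and Adgre1 most.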
